A study of Mus musculus with 96 samples.

Results

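The myosin-gene miRNAs are the 6 mature sequences cut from 3 hairpins, miR-208a, miR-208b and miR-499, and they were chosen by their names in the tables: mmu-miR-208a-3p, mmu-miR-208a-5p, mmu-miR-208b-3p, mmu-miR-208b-5p, mmu-miR-499-5p and mmu-miR-499-3p (written below without the prefix for mouse). They make up 6 of the 1978 mature sequences listed in the tables, of which 1561 had a count in some library. The study followed the mouse heart after acute myocardial infarction (MI). Small RNA was sequenced from 4 fractions of the heart, which held cardiomyocytes (CMs), hematopoietic cells that carry CD45 (HCs), endothelial cells (ECs) or fibroblasts (FBs), at D0, D1, D3, D7, D14 and D28, with 4 libraries for each cell type and day and 96 in all. Mice were male C57Bl/6J, 12 to 14 weeks old at surgery, and MI was made by permanent ligation of the left anterior descending artery. The D0 mice had no MI and were not operated on, so that D0 is not a sham control. Each library held RNA pooled from 3 mice, or from 2 where one was missing, and by the study's methods the pools of a day came from the same animals in all cell types. The sources do not say which pools of different cell types match, so cell types are compared without pairing. The study calls the 4 libraries of a group biological replicates in some places and technical ones in others, so p-values measure only the spread between these libraries. CMs were enriched by low-speed centrifugation, ECs and HCs by magnetic separation from its supernatant, and FBs by a short plating step. RNA input and PCR cycles followed the cell type (500 ng and 14 cycles for CMs, 50 ng and 16 for ECs, 150 ng and 15 for FBs and HCs) and libraries were prepared in batches by cell type, so these and the cell type cannot be told apart. In all results, fewer cells of a type and less RNA per cell cannot be told apart.

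Each of the 3 hairpins lies inside an intron of a myosin heavy chain gene. Myh6 encodes the fast alpha isoform that dominates the adult mouse ventricle, and Myh7 encodes the slow beta isoform, which is prominent in the fetal ventricle and is known to return under load and injury. Myh7b is a related gene that lies apart from them. A miRNA in an intron is transcribed with its host, cut out as a hairpin and diced into a 5p and a 3p strand. One strand usually enters an Argonaute protein and pairs through its seed, bases 2 to 8, with target mRNAs, while the other is mostly degraded. In the mouse, miR-208a is known as a regulator of the beta isoform and of miR-499 and miR-208b, and miR-499 is the most abundant member of the family in heart muscle. The mRNAs of the host genes were not analysed here.

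The mature sequences are shown because the ratio of miR-208b to miR-208a, on which much of what follows turns, compares near-identical strands. All 6 names matched an entry of RefSeq on GRCm38.p6. The seed is in capitals and sequences run 5′ to 3′:
miR-208a-3p: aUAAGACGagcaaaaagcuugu
miR-208b-3p: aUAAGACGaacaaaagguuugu
miR-499-5p: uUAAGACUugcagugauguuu
miR-208a-5p: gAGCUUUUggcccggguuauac
miR-208b-5p: aAGCUUUUugcucgcguuaugu
miR-499-3p: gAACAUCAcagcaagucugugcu

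miR-208a-3p and miR-208b-3p carry the same seed, which no other of 1679 mature mouse sequences in RefSeq had. The bases 2 to 7 of miR-499-5p match both, and base 8 differs. Counted from 1 at the 5′ end, miR-208a-3p and miR-208b-3p differ by G10A, A16G and C18U, with 19 of 22 bases identical. How the authors' alignment divided a read with errors between them is not shown by the tables. No other listed miRNA had the same counts as either of them, which does not answer that question. The hairpins follow, with both mature strands in capitals, since the strand that is kept differs between them:
Mir208a: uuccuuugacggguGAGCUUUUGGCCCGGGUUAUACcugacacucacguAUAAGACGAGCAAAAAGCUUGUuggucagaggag
Mir208b: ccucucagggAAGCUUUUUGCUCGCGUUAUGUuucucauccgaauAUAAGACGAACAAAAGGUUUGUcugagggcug
Mir499: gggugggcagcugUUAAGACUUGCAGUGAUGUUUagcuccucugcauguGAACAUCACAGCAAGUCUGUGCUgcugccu

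On GRCm38, Mir208a lies at chr14:54949060-54949142 on the minus strand in intron 29 of 38 of Myh6-201, the transcript named first in the GENCODE annotation. Mir208b lies 26640 bases away (start to start) at chr14:54975700-54975776, also on the minus strand, in intron 31 of 40 of Myh7-201. Mir499 lies at chr2:155622880-155622958 on the plus strand, in intron 19 of 41 of Myh7b-201.

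The total count on mature miRNAs ran from 3327351 to 24279105 in CMs, 525651 to 29037628 in ECs, 2217588 to 65588543 in FBs and 18286 to 29504666 in HCs. HC replicate 3 at D0 is the library with 18286 counts and stands apart. It held 1 count each of miR-208a-3p, miR-208a-5p and miR-208b-3p and 16 of miR-499-5p, and results that use it are given with and without it. As means over all days in CPM (counts scaled to the same library total), the markers matched the labels of the fractions. The CM markers miR-1a-3p and miR-133a-3p, both of striated muscle, were highest in CMs. So were both EC markers in ECs, all 3 FB markers in FBs and all 4 HC markers in HCs, although the HC marker miR-150-5p was nearly as high in ECs. At D0 alone, however, miR-133a-3p was lower in CMs (mean 391 CPM) than in ECs (1143 CPM) and HCs (753 CPM, replicate 3 included). The summed CM markers at D0 ran from 75545 to 133826 CPM in ECs and from 85043 to 131357 CPM in HCs. In HCs that was above their own summed markers, at 6819.5 to 10015 CPM. The EC markers were not at 0 in CMs, where their summed level ran from 4423 to 9789 CPM at D0 and from 19277 to 27651 CPM at D14. The summed FB markers in CMs ran from 36.5 to 114 CPM at D0 and from 1358 to 2188 CPM at D14, and the HC markers from 14.6 to 75.8 CPM and from 151 to 182 CPM. Their part in the results on CMs was not tested.

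The scale matters for every change in CMs. miR-1a-3p alone took 657447 ± 57062 CPM (SD, n = 4) of the CM libraries at D0 and 353118 ± 45290 CPM at D14. Changes below are therefore given on the scale of trimmed mean of M values (TMM), which assumes that most miRNAs do not change, with CPM of the library total beside them. In CMs that assumption is in doubt, since on this scale 38% of all tested miRNAs rose and 29.1% fell at D14. Over all days 73.8% passed a test of any change. The size of a change in CMs therefore rests on the scaling. The TMM factors of CM libraries ran from 0.289 to 0.357 at D0 and from 1.91 to 2.04 at D14. The median log2 fold change of all 484 miRNAs tested in CMs was still 0.20, 0.44, 0.35, 0.41 and 0.25 at the 5 days after MI, and the members' changes are to be read against it.

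The member that changed most in CMs was miR-208b-3p, the main strand of the Myh7 hairpin. Its count in the 4 D0 libraries was 28, 27, 32 and 24, or 1.84 to 2.67 CPM. At D7 the counts were 900, 2089, 936 and 1761 (60.1 to 165 CPM), and at D14 they were 1722, 908, 1107 and 2926 (176 to 333 CPM). At D28 they were 152, 374, 690 and 1156 (11.2 to 127 CPM), and replicate 4 lay highest. All 4 libraries of D3, D7, D14 and D28 lay above all of D0 on both scales, and at D1 one of 4 overlapped on the TMM scale.

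On the TMM scale, miR-208b-3p rose by a log2 fold change of 1.73 at D3 (standard error (SE) 0.48, adjusted p = 0.0040, edgeR's quasi-likelihood test). The change was 3.18 at D7 (SE 0.50, adjusted p = 1.1e-05) and 4.31 at D14 (SE 0.52, adjusted p = 4.0e-07), and at D28 it was 2.88 (SE 0.49, adjusted p = 8.4e-05). At D1 the value was 0.89 and did not pass (adjusted p = 0.16). Between successive days, the step from D14 to D28 was a fall of 1.43 (SE 0.45, adjusted p = 0.031), while the steps from D1 to D3 (0.84), D3 to D7 (1.45) and D7 to D14 (1.13) did not pass. In order of level the days were D14, D7, D28, D3, D1 and D0. Only D14 and D7 did not overlap as neighbours in that order.

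miR-208a-3p, the main strand of the Myh6 hairpin, was already present at D0 with 1813, 1111, 1774 and 1366 counts (78.6 to 173 CPM). At D1 it had 3870 to 13876 counts and at D3 4978 to 16093. At D7 the counts were 27839, 35617, 32538 and 43678, or 2022 to 2818 CPM. The 4 libraries of D7 lay closely together, and they, D14 and D28 lay above all D0 libraries, whereas D1 and D3 overlapped D0 by 1 library each on the TMM scale. The log2 fold change was 2.05 at D7 (SE 0.31, adjusted p = 8.2e-06, same edgeR test), 1.77 at D14 (adjusted p = 3.7e-05) and 1.58 at D28 (adjusted p = 0.00025). At D1 (0.71, adjusted p = 0.084) and D3 (0.66, adjusted p = 0.068) it did not pass. These early values depended on 1 library: without CM replicate 1 of D0 they were 0.95 (adjusted p = 0.024) and 0.79 (adjusted p = 0.041), and without CM replicate 1 of D1 the D1 value was 0.95 (adjusted p = 0.016). The step from D3 to D7 was a rise of 1.39 (SE 0.31, adjusted p = 0.019), and no other step passed.

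miR-499-5p, the main strand of the Myh7b hairpin, had the highest counts of the 6 in every CM library. At D0 the counts were 16904, 12884, 16918 and 16008 (912 to 1609 CPM), and over the later days they ran from 44014 to 183110 (2224 to 14256 CPM). The log2 fold change was 0.92 as early as D1 (SE 0.21, adjusted p = 0.0076, same edgeR test) and 0.96 on D3 (adjusted p = 0.00068). Later values were 0.81 (D7, adjusted p = 0.0019), 0.70 (D14, adjusted p = 0.0056) and 1.27 (D28, adjusted p = 7.4e-05). All 4 libraries of D3, D7, D14 and D28 lay above D0, and at D1 the lowest of 4 overlapped it. No step between successive days from D1 on passed. Without CM replicate 3 of D14 the D14 value was 0.49 (adjusted p = 0.053), and with the libraries of D0 and D1 alone the D1 value was 1.07 (adjusted p = 0.098).

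**Figure D1:**
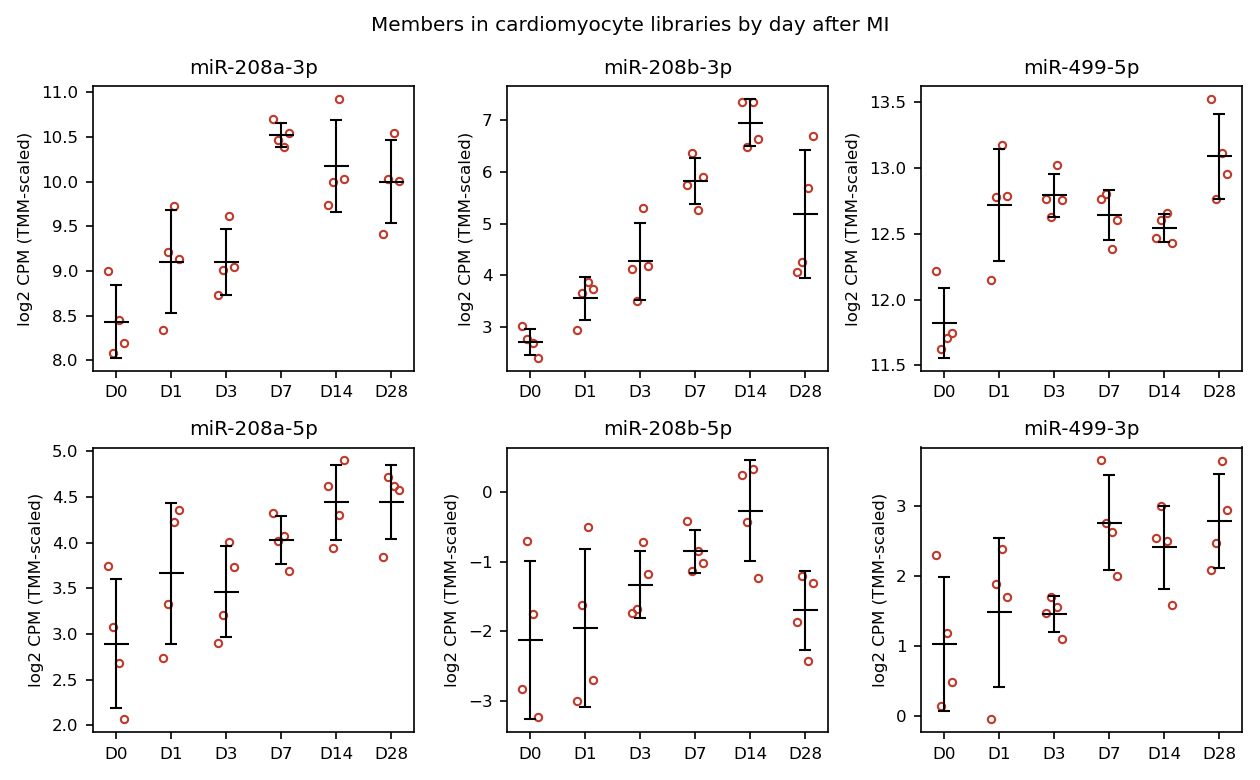
Level of the 6 members in the 24 CM libraries by day, as log2 CPM on the TMM scale, with a separate vertical axis in each panel. Circles are libraries, horizontal bars the mean and error bars the SD of 4 libraries. miR-208b-3p climbs from 2.71 at D0 to 6.96 at D14, miR-208a-3p steps up between D3 (9.10) and D7 (10.52), and miR-499-5p lies between 12.54 and 13.09 from D1 on.

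The passenger strands were scarce. miR-208a-5p had 19 to 47 counts per CM library at D0 and passed the test at D7 (log2 fold change 1.06, adjusted p = 0.015), D14 (1.5, adjusted p = 0.0014) and D28 (1.49, adjusted p = 0.0021). Its D7 value missed the threshold without CM replicate 4 of D0 (0.82, adjusted p = 0.060) or without CM replicate 3 of D7 (0.89, adjusted p = 0.053), and at D1 it passed without CM replicate 1 of D0 (1.16, adjusted p = 0.020) or CM replicate 1 of D1 (1.08, adjusted p = 0.021). miR-499-3p had 4 to 17 counts at D0 and passed at D7 (1.69), D14 (1.29) and D28 (1.72), the D14 call (adjusted p = 0.032) being lost without any 1 of 6 libraries. miR-208b-5p had 0, 2, 1 and 0 counts at D0 and at most 14 in any CM library. It entered the test only through the later days, and its call at D14 (12, 7, 8 and 12 counts, adjusted p = 0.019) was lost in the fit of D0 and D14 alone (adjusted p = 0.052) and without any 1 of 4 libraries. At 0 to 2 counts in the D0 libraries no fold is given for it.

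miR-208b-5p and miR-499-3p reached the low-count cutoff of 0.717 CPM in 0 and 1 of the 4 D0 libraries, entered the test through later days and are left out of the following counts. By day, 1 of the other 4 members rose in CMs at D1, where 13.6% of all tested miRNAs rose. At D3 it was 2 of 4 (31.8% of all), at D7 4 of 4 (38.8%), at D14 4 of 4 (38%) and at D28 4 of 4 (29.5%). None of the 4 fell on any day. Over all days, 4 of 4 passed the F test, beside 73.8% of all tested miRNAs. In the same test miR-208a-3p and miR-499-5p passed in ECs (58.2% of all), 4 of 4 in HCs (73.5%) and 0 of 2 in FBs (68.2%). Between successive days 1 member passed from D3 to D7 (3.1% of all tested) and 1 from D14 to D28 (15.9%), and none from D1 to D3 (12%) or D7 to D14 (1.45%).

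With the library total as the only scaling, the rises were larger, and the log2 fold change at D14 was 6.92 for miR-208b-3p, 4.37 for miR-208a-3p and 3.30 for miR-499-5p. With the library total less miR-1a-3p they were 5.98, 3.42 and 2.34, and with DESeq2 4.46, 1.93 and 0.84. The order of the 3 was the same under all 4 scalings at D14, and none of them turned to a fall on any day. Of the 4 members counted above, 1 passed at D1 with TMM and 4 with either library total, and at D3 2 and 4. The share of all tested miRNAs that passed with the library totals is not given here, so these counts say nothing particular to the members.

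**Figure D2:**
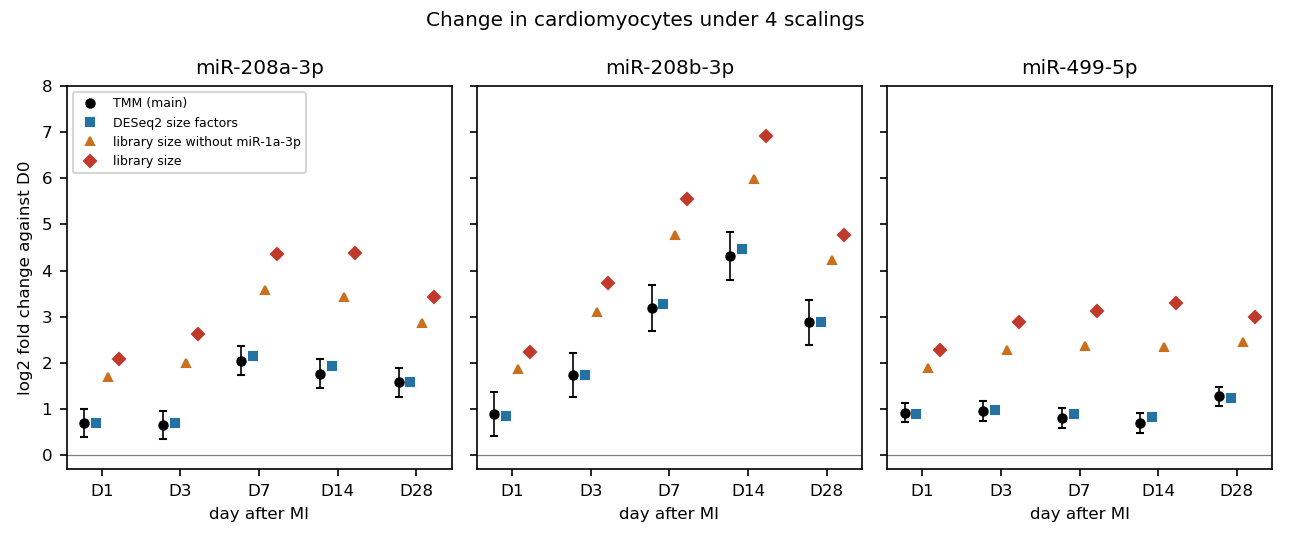
Log2 fold change against D0 of the 3 main strands in CMs under 4 scalings, by day after MI. Black circles are the TMM values with their SE, and other symbols the same comparison with other scalings. miR-208b-3p at D14 lies between 4.31 and 6.92, and miR-499-5p between 0.70 and 3.30.

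Other striated muscle miRNAs did not all follow the members. Of the 9 listed, at D14 5 rose and 4 fell in CMs on the TMM scale (38% and 29.1% of all tested), with a median of 1.26. miR-1a-3p fell by 3.51 and miR-486a-5p, which is shared with red cells, fell by 1.97, and miR-486a-3p fell by 2.77. Per library total the fall of miR-1a-3p was much smaller, from a mean of 657447 CPM at D0 to 353118 CPM at D14. Per library total miR-486a-5p was instead higher, at 1799 ± 107 CPM (SD, n = 4) on D0 and 2791 ± 603 CPM on D14. miR-486a-3p stood at 310 ± 116 CPM on D0 and 274 ± 81 CPM on D14. miR-206-3p fell by 3.51 as well, but it is a near copy of miR-1a-3p in sequence, so that its counts are uncertain. miR-133a-3p (1.54), miR-133b-3p (1.60), miR-133a-5p (2.13), miR-1a-1-5p (1.26) and miR-1a-2-5p (2.17), of the miR-1 and miR-133 families, rose. miR-133a-3p and miR-133b-3p had similar means, 391 and 346 CPM at D0 and 6871 and 6325 CPM at D14. Whether their counts are separate was not tested.

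A ratio of 2 miRNAs within a library does not depend on how the library is scaled. For every 100 counts of miR-208a-3p, the 4 CM libraries of D0 held 1.54, 2.43, 1.80 and 1.76 counts of miR-208b-3p. At D7 they held 3.23, 5.87, 2.88 and 4.03, and at D14 19.1, 8.77, 8.37 and 9.54. At D28 they held 2.44, 1.84, 3.44 and 10.0. The libraries of D7 and D14 lay above all of D0, those of D1 (1.72 to 2.36) within the range of D0, and 2 of 4 of D28 above D0 on the log2 scale. Replicate 1 at D14 and replicate 4 at D28 lay highest in their groups.

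On the log2 scale the ratio was -5.73 ± 0.28 (SD, n = 4) at D0, -5.55 ± 0.22 on D1 and -4.83 ± 0.51 on D3. It then stood at -4.70 ± 0.45 (D7), -3.22 ± 0.56 (D14) and -4.82 ± 1.07 (D28). The D14 ratio was 5.69-fold that of D0, a log2 difference of 2.51 with SE 0.31 (exact permutation test, two-sided, p = 0.0286, adjusted over 5 days 0.0714, n = 4 and 4). At D7 the difference was 1.03 with SE 0.26 (exact p = 0.0286, adjusted 0.0714). These are the smallest p that 4 against 4 can give, and neither passes 0.05 after adjustment. The differences at D1 (0.17, exact p = 0.4), D3 (0.90, exact p = 0.0571) and D28 (0.90, exact p = 0.114) also did not pass. Without replicate 1 the D14 difference was 2.23, and without replicate 4 the D28 difference was 0.40.

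The ratio was also placed in a fit across all features, a test chosen after the values had been seen, in which each of 483 CM miRNAs was expressed as a ratio to miR-208a-3p and tested with limma. There the rise of miR-208b-3p passed at D14 (adjusted p = 1.1e-05) and D7 (adjusted p = 0.034) and not at D1 (0.80), D3 (0.085) or D28 (0.067). Of all the ratios, 8.07% rose at D14 and 6.63% at D7.

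The ratio was also taken from the hairpin tables. These tables list far fewer counts for the hairpins, from 64 to 202 for miR-208a and 2 to 21 for miR-208b at D0. In the mature tables miR-208a-3p alone had 1111 to 1813 counts at D0. The hairpin tables are therefore not a second count of the same reads, and which reads they hold was not examined. Their ratio does not test that of the mature strands. The log2 difference was 2.06 at D14 and 0.48 at D7, but -0.62 at D1 and -0.19 at D28, and no day passed (exact permutation test, adjusted p = 0.286 at D14).

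**Figure D3:**
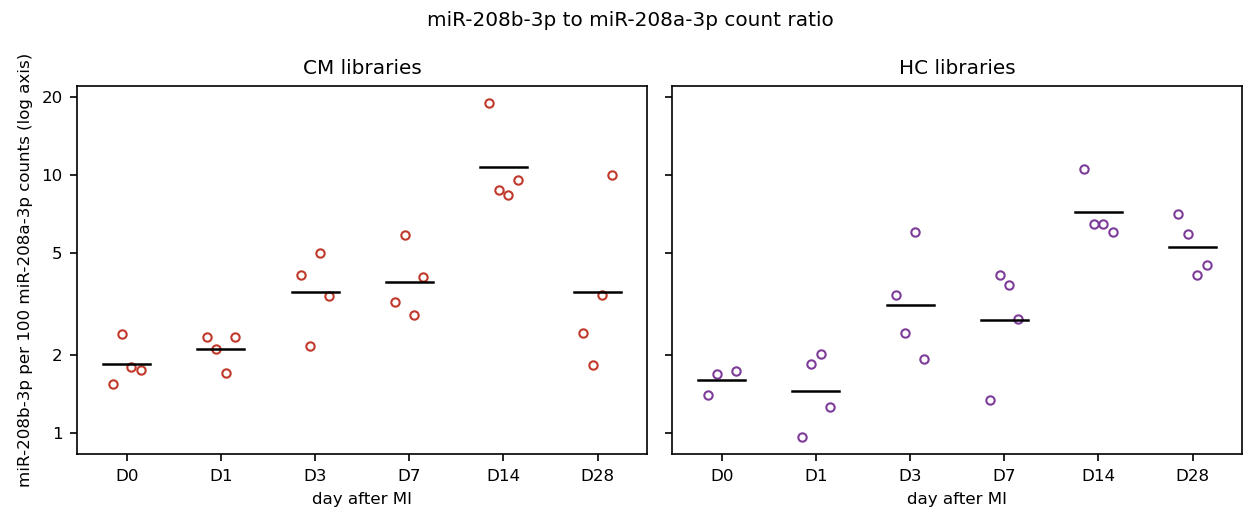
Counts of miR-208b-3p per 100 counts of miR-208a-3p in each CM library (left) and HC library (right) by day after MI, on a log axis. Circles are libraries and bars geometric means, and HC replicate 3 at D0, with 1 count of each, is left out. CM libraries lie between 1.54 and 2.43 at D0 and between 8.37 and 19.1 at D14, and HC libraries between 1.41 and 1.74 and between 6.02 and 10.5.

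miR-499-5p was lower relative to both miR-208 strands at D7 and D14 than at D0. For every 100 counts of miR-208a-3p, the summed CM libraries held 1034 counts of miR-499-5p at D0, 1224 at D3, 437 at D7, 520 at D14 and then 774 at D28. The log2 ratio to miR-208a-3p was lower than at D0 by 1.27 at D7 (SE 0.12) and by 1.02 at D14 (SE 0.24), with all 4 libraries of each day below D0 (exact permutation p = 0.0286 for each, adjusted over 10 comparisons 0.0714). Against miR-208b-3p it was lower by 2.30 at D7 (SE 0.19) and by 3.53 at D14 (SE 0.25), again with no overlap and the same exact p. In the limma fit across all ratios these 4 differences passed (adjusted p = 0.0015, 0.0095, 0.00029 and 1.7e-07). Ratios to miR-208a-3p fell for 58.8% of all tested miRNAs at D7 and 50.9% at D14, and those to miR-208b-3p for 74.1% and 92.3%. Most miRNAs thus fell relative to these strands, and the lower ratios are not particular to miR-499-5p.

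**Figure D4:**
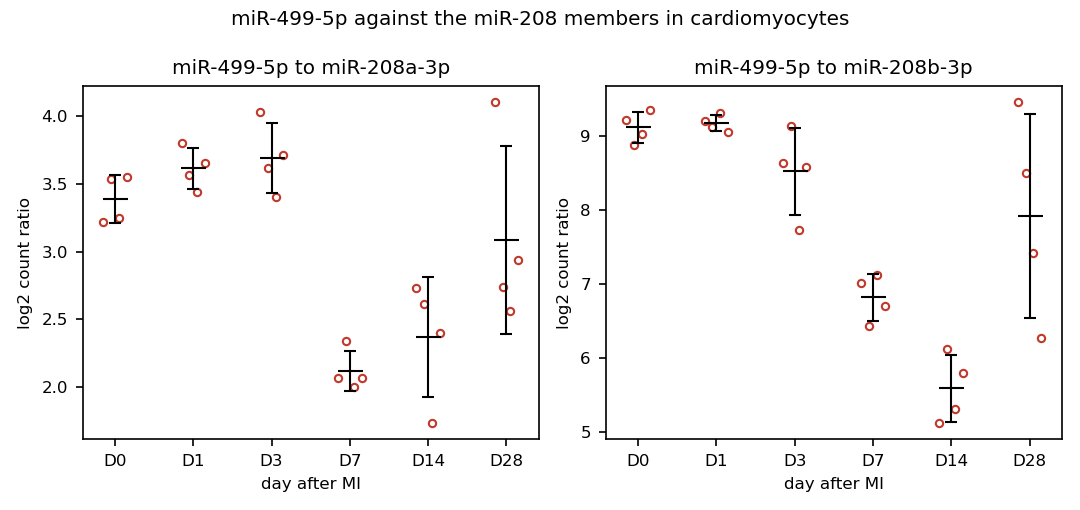
Log2 count ratio of miR-499-5p to miR-208a-3p (left) and to miR-208b-3p (right) in CM libraries by day after MI. Circles are libraries, with the mean and SD of 4. The ratio to miR-208a-3p lies at 3.39 at D0 and 2.12 at D7.

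The 3 hairpins differed in the strand that was kept. Over all 24 CM libraries, the 5p strand held 1.72% of the counts of miR-208a, 0.878% of those of miR-208b and 99.9% of those of miR-499. The arm ratio of miR-499 changed over all days (limma, adjusted p = 0.024), when 70.7% of 99 hairpins did, but no single day passed against D0. For miR-208a it did not pass over all days (adjusted p = 0.068), and the 5p strand fell relative to the 3p strand at D7 by 0.95 on the log2 scale (adjusted p = 0.016, beside 70.7% of hairpins). That call was lost without CM replicate 2 of D0 (0.78 lower, adjusted p = 0.061) or CM replicate 4 of D7 (0.83 lower, adjusted p = 0.054). miR-208b had too few 5p counts to be tested. In the sums over EC libraries of a day the 5p strand held between 7.14% and 18% of the counts of miR-208a, above the 2.13% of CMs at D0. That difference was not tested. In HCs the ratio of miR-208a-5p to miR-208a-3p fell at D3 by 2.56 (limma, adjusted p = 0.013, beside 22.4% of 152 hairpins). The 5p counts were few, 4, 28, 3 and 3 in the D3 libraries, and HC replicate 3 of D0 had 1 count of each strand. Without that library the value was -1.42 (adjusted p = 0.0029), and with 5 added to each count it was -1.72 (adjusted p = 0.092). Over all days it did not pass in HCs (adjusted p = 0.13, beside 15.8% of hairpins), and it did without HC replicate 3 of D0. On the other days it did not pass, but without HC replicate 2 of D0 it did at D1 (-2.19, adjusted p = 0.044) and D7 (-2.45, adjusted p = 0.041).

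Across the fractions, all 6 members were highest in CMs as a mean over days. The log2 difference of CMs on the scale shared by all 96 libraries was 6.61 against ECs, 10.29 against FBs and 5.95 against HCs for miR-208a-3p. It was 7.34, 9.89 and 6.19 for miR-208b-3p and 6.37, 10.24 and 6.03 for miR-499-5p. miR-208a-3p and miR-499-5p, the members that passed the filter on low counts in every fraction, passed in all 6 comparisons (edgeR, highest adjusted p = 1.0e-44), where 32.2%, 34.8% and 35.8% of miRNAs were higher in CMs than in ECs, FBs and HCs. miR-208b-3p was too scarce for the filter in ECs and FBs, so that its values against them are a description. miR-208b-5p had no count in any EC or FB library. Set against the limit of 3 counts over the cell type, its mean CPM in CMs was at least 25.5-fold higher than in ECs and at least 93.7-fold higher than in FBs.

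At D0 the fractions lay much closer per library total, except for FBs. miR-208a-5p, at few counts, was not highest in CMs then, with 1.45 to 4.47 CPM in CMs, 2.20 to 10.6 CPM in ECs and 3.93 to 4.35 CPM in HC replicates 1, 2 and 4. miR-208a-3p stood at 78.6 to 173 CPM in CMs and at 85.9, 122 and 95.5 CPM in HC replicates 1, 2 and 4, which overlapped. miR-208b-3p stood at 1.84 to 2.67 CPM in CMs, at 1.21, 2.06 and 1.66 CPM in those HC libraries and at 0.95 to 2.73 CPM in ECs. miR-499-5p stood at 912 to 1609 CPM in CMs and at 1088, 1097 and 637 CPM in those HC libraries. At D14 the same 3 strands were at most 88.2, 6.23 and 632 CPM in any HC library and at least 1633, 176 and 10828 CPM in every CM library, with no overlap. The CM markers in HCs summed to 85043 to 131357 CPM at D0 and 47503 to 71221 CPM at D14.

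**Figure D5:**
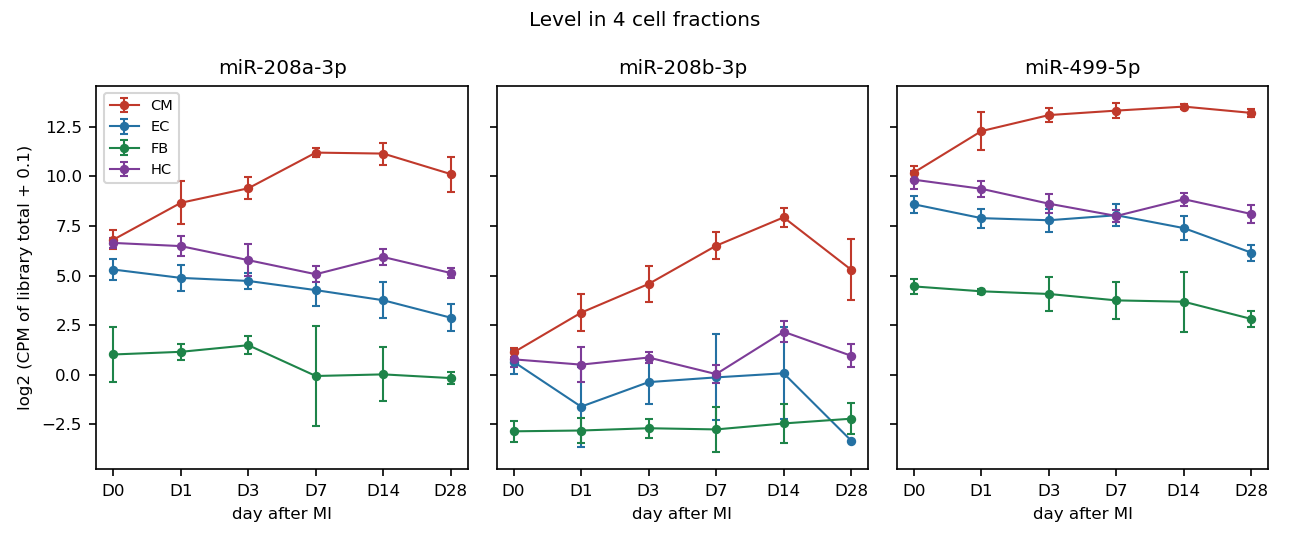
Mean level of the 3 main strands in each cell fraction by day after MI, as log2 of CPM of the library total with 0.1 added, and the SD over libraries. HC replicate 3 at D0 is left out. CMs and HCs start together at D0 and part from D1 on, with FBs lowest except for miR-208b-3p at D28, which had no count in ECs.

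In ECs the tested members fell. miR-208a-3p had 23.6 to 54.5 CPM at D0 and 4.72 to 12.3 CPM at D28, without overlap. In counts, it had 100 to 482 per library at D0 but only 5, 9, 3 and 48 in EC replicates 1 to 4 of D28. At D14 it had 66, 85, 76 and 6 counts, so that its lowest levels rest on few counts. Its log2 fold change was -1.54 at D14 (SE 0.41, adjusted p = 0.012, edgeR) and -2.10 at D28 (SE 0.46, adjusted p = 0.00062). miR-499-5p went from 264 to 534 CPM at D0 to 50.8 to 101 CPM at D28, a log2 fold change of -2.42 (SE 0.36, adjusted p = 6.6e-06), and of -1.34 at D14 (adjusted p = 0.0081). miR-208a-5p fell at D28 (-2.70, adjusted p = 0.0030), from 11 to 63 counts to at most 4. No D28 library reached the low-count cutoff for miR-208a-5p, and without EC replicate 2 of D28 its value was -4.62. Of miR-208a-3p and miR-499-5p, which reached the cutoff in all EC libraries, 2 of 2 fell at D28 (20.2% of all tested miRNAs), 2 of 2 at D14 (3.09%) and 1 of 2 at D7 (4.75%). The D7 calls, -1.27 for miR-208a-3p and -1.41 for miR-208a-5p, were both lost without EC replicate 2 of D0 (adjusted p = 0.073 and 0.25), EC replicate 4 of D0 (adjusted p = 0.053 and 0.059) or EC replicate 2 of D7 (adjusted p = 0.084 and 0.088). That of miR-208a-5p was also lost without EC replicate 3 of D7 (adjusted p = 0.066) or EC replicate 4 of D7 (adjusted p = 0.054), and with the library total as scaling both were lost (-0.97 for miR-208a-3p with adjusted p = 0.062 and -1.09 for miR-208a-5p with adjusted p = 0.10). miR-499-5p did not pass at D7, but it did without EC replicate 4 of D0 (-1.01, adjusted p = 0.046), without EC replicate 4 of D7 (-1.07, adjusted p = 0.026) and with DESeq2 (-0.87, adjusted p = 0.044). miR-208a-5p passed at D14 without EC replicate 2 of that day (-1.67, adjusted p = 0.046). At D1 and D3 no tested member passed with edgeR or DESeq2, where 0% and 2.14% of all fell, and at D3 miR-499-5p alone had an unadjusted p under 0.05 (-0.75, unadjusted p = 0.034 in edgeR's quasi-likelihood test), and none at D1. Without EC replicate 1 of D3 its value was -1.17 (adjusted p = 0.020). miR-208b-3p was too scarce in ECs for the test, with 2 to 27 counts per library at D0 and none in any library at D28, which allows up to 0.435 CPM over that group. The summed CM markers in ECs ran from 75545 to 133826 CPM at D0 and from 20917 to 80646 CPM at D28, and at D3 from 82308 to 161670 CPM. Their part in these changes was not tested.

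HCs showed the same direction for the Myh6 and Myh7b strands. miR-499-5p had 637 to 1097 CPM in the 4 D0 libraries and 210 to 333 CPM at D7, without overlap, with a log2 fold change of -2.20 (SE 0.26, adjusted p = 1.9e-07, edgeR). It fell on all 5 days, by 0.82 at D1, 1.67 at D3, 1.27 at D14 and 1.96 at D28, although the D1 call depended on HC replicate 2 of D0 (0.67 lower without it, adjusted p = 0.050, which rounds to the threshold and lies above it) and was lost with the library total as scaling (-0.44, adjusted p = 0.16). The fall of miR-208a-5p at D1 was lost with the library total (-0.75, adjusted p = 0.090) and with DESeq2 (-1.11, adjusted p = 0.14). miR-208a-3p fell by 1.29 at D3, 1.96 on D7, 1.01 on D14 and 1.80 on D28, and not at D1 (-0.52, adjusted p = 0.13), although it passed there without HC replicate 3 of D1 (-0.81, adjusted p = 0.028). The D14 call was lost without HC replicate 2 of D0 (0.83 lower, adjusted p = 0.066) and with the library total (0.67 lower, adjusted p = 0.087). Without the shallow replicate 3 of D0, the D7 values were -2.27 for miR-499-5p and -2.0 for miR-208a-3p, and every HC call of a member was kept. The HC markers in HCs summed to 6819.5 to 10015 CPM at D0 and 12370 to 23649 CPM at D7, the CM markers to 25710 to 45044 CPM at D7.

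miR-208b-3p in HCs did not keep to that direction. It had 32, 57 and 49 counts in HC replicates 1, 2 and 4 at D0 (1.21 to 2.06 CPM), 5 to 14 counts at D7 (0.608 to 1.43 CPM) and 96, 44, 68 and 35 counts at D14 (2.78 to 6.23 CPM). The log2 fold change was -1.25 at D7 (adjusted p = 0.020, edgeR) and 1.07 at D14 (adjusted p = 0.047). Both calls were fragile. The D14 rise was lost with DESeq2 (adjusted p = 0.40) and without any 1 of HC replicates 1, 2 and 4 of D0 or 1, 2 and 3 of D14 (0.85 to 1.24, adjusted p = 0.051 to 0.18), and it passed without replicate 3 of D0 (1.13, adjusted p = 0.026). The D7 fall was lost with DESeq2 (adjusted p = 0.16), with the library total as scaling (-0.83, adjusted p = 0.11), without HC replicate 2 of D0 (adjusted p = 0.081) and without HC replicate 1 of D7 (adjusted p = 0.058). By day, 2, 3, 4, 3 and 3 of the 4 tested members fell at D1, D3, D7, D14 and D28, when 28.9%, 28.1%, 19.6%, 12.8% and 11.3% of all tested miRNAs fell, and 1 rose at D14, when 15.3% rose.

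The ratio of miR-208b-3p to miR-208a-3p in HCs also differed between days. HC libraries at D0 held 1.41, 1.70 and 1.74 counts of miR-208b-3p per 100 of miR-208a-3p, leaving out replicate 3. At D14 they held 10.5, 6.45, 6.48 and 6.02, and at D28 7.07, 5.89, 4.10 and 4.46. All libraries of D3, D14 and D28 lay above D0. The log2 difference was 2.16 at D14 (SE 0.21) and 1.71 at D28 (SE 0.20), each at an exact permutation p = 0.0571, the smallest that 4 against 3 can give, and 0.0952 after adjustment over 5 days. These HC tests were added after the values had been seen.

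Set against CMs of the same day, none of 18 comparisons of this ratio in ECs, FBs and HCs passed after adjustment (exact permutation test, 1 of 18 at an unadjusted p under 0.05, ECs at D0 with 0.0286, adjusted 0.514). The difference of HCs from CMs was -0.22 with SE 0.17 at D0, -0.57 with SE 0.33 at D14 and 0.60 with SE 0.56 at D28. ECs held 44 counts of miR-208b-3p to 1008 of miR-208a-3p over the D0 libraries, or 4.37 per 100, and 29 to 233 at D14, or 12.4 per 100. FBs held 3 to 157 at D0 and 10 to 104 at D14, or 1.91 and 9.62 per 100. With 18 comparisons, 11 would have had to reach the smallest possible p together for any to pass, so the adjusted values say nothing of likeness between the fractions. ECs at D0 exceeded CMs by 1.11 (SE 0.42), with all 4 libraries above CMs on the log2 scale with 0.5 added, whereas in plain counts per 100 they ran from 2.00 to 6.93 and overlapped the 1.54 to 2.43 of CMs.

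In FBs, where 2 of the 6 members had enough counts for the test, none passed on any day with edgeR or DESeq2, when 7.99%, 43%, 45.6%, 24.7% and 6.75% of all tested miRNAs changed at D1, D3, D7, D14 and D28. FBs had the lowest counts, with miR-208a-3p at 0 to 7.04 CPM over all libraries and miR-499-5p at 4.04 to 51.0 CPM. The log2 fold changes at D28 were -1.71 for miR-208a-3p (adjusted p = 0.15, edgeR) and -1.51 for miR-499-5p (adjusted p = 0.092). Both had an unadjusted p under 0.05 at D28 (0.017 and 0.0090), and neither had on another day. At D7 both passed without FB replicate 4 of D7, at -2.21 for miR-208a-3p (adjusted p = 0.0095) and -1.40 for miR-499-5p (adjusted p = 0.045), and at D14 miR-208a-3p passed without FB replicate 3 of D14 (-2.12, adjusted p = 0.036). In the fit of D0 and D28 alone both passed (adjusted p = 0.025 and 0.0031), as they did with no filter on low counts (adjusted p = 0.0015 and 6.7e-05).

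The change in CMs was tested against the mean change in ECs, FBs and HCs as an interaction over all 96 libraries. For miR-499-5p the CM change exceeded it by 1.88 to 3.42 on the log2 scale, past the threshold on all 5 days (highest adjusted p = 0.00088, edgeR). For miR-208a-3p the excess was 1.53 at D1 (adjusted p = 0.018) and 3.68 at D28. For miR-208b-3p it did not pass at D1 (1.99, adjusted p = 0.074) and passed at D3 (2.75), D7 (4.05), D14 (3.77) and D28 (5.23), where the ECs had no count. For miR-208b-5p and miR-499-3p no such difference could be estimated, since ECs or FBs were at or near 0. miR-208b-3p reached the low-count filter of CMs and HCs and not that of ECs and FBs, so its differences here are a description. miR-208a-3p and miR-499-5p, which passed it in every fraction, were both past the threshold on all 5 days, where 15.9%, 27.9%, 28.2%, 26.5% and 23.9% of all tested miRNAs were higher in CMs at D1, D3, D7, D14 and D28. The median of this difference over all miRNAs lay between 0.49 (D14) and 0.81 (D3).

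The miRNAs most like each main strand over the 24 CM libraries were found by Spearman's rho on the TMM scale among 207 candidates with a mean of at least 10 CPM. For miR-208a-3p they were let-7i-3p (0.957), miR-29a-3p (0.917) and miR-29c-3p (0.898). For miR-208b-3p they were miR-497a-5p (0.942), miR-130a-3p (0.937) and miR-15a-5p (0.914). For miR-499-5p likeness was lower on this scale, with miR-186-5p (0.777), miR-145a-3p (0.735) and miR-30d-3p (0.717). With the library total as the only scaling the same 3 stood nearest to miR-208a-3p (0.961 to 0.973) and to miR-208b-3p, there led by miR-15a-5p (0.970). For miR-499-5p they did not, since the highest rho of any candidate was then 0.950, with miR-145a-3p eighth at 0.933 and miR-186-5p at 0.731. Among the members rho on the TMM scale was 0.83 between miR-208a-3p and miR-208b-3p, 0.422 between miR-208a-3p and miR-499-5p and 0.330 between miR-208b-3p and miR-499-5p, and 0.922, 0.863 and 0.898 with the library total. The libraries share 6 days and the scaling factor, and these values describe the pattern only.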

How the data were processed

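Small RNA was sequenced in 96 libraries, and all were used. The authors deposited raw counts, as 1 table of alignments to mature sequences and 1 to hairpins for each library. Per the submitters' processing notes and the study's methods, reads were trimmed with Trim Galore, reads under 18 nt were removed, and the rest were aligned with Bowtie2 to miRBase sequences and counted with SAMtools. The study's methods name release 21 of miRBase, which was not checked against the tables, and the notes name mm10. Versions of the tools are not given in the sources used here. The line of unaligned reads, 25.6% to 83.0% of a mature table, stayed out of library sizes and tests.

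Counts were tested with edgeR 4.0.16 (quasi-likelihood, TMM, filterByExpr, R 4.3.3) within each cell type over all 6 time points, on 484 (CMs), 421 (ECs), 563 (FBs) and 608 (HCs) miRNAs, and over all 96 libraries for levels and interactions (712 miRNAs). P-values were adjusted by Benjamini-Hochberg over all tested miRNAs, with a threshold of 0.05. Log2 count ratios had 0.5 added to each count and were compared by exact two-sided permutation tests (70 arrangements for 4 against 4). Arm ratios and ratios of all miRNAs were tested with limma 3.58.1. Alternatives were DESeq2 1.42.0, other scalings, no filter, leaving out libraries, fits of D0 and 1 day, a replicate block, another pseudocount and hairpin tables. The test was tried on simulated data for CMs at D14 over 484 miRNAs. There, 33.3%, 90.9% and 94.1% of changes of 1, 2 and 3 on the log2 scale were recovered. Of the calls made, 3.95% were of unchanged miRNAs. The simulation drew all days from the same mean profile, with rises and falls equally likely. It held no shift in library composition like that between the CM libraries of D0 and D14. These rates therefore do not show how the test behaves under such a shift.

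The members and lists were chosen with earlier results of these data known. The text names the 6 members, 9 other muscle miRNAs, the cell type markers and the 3 miRNAs most like each main strand. In the study 1 unnamed library each was dropped from the HC and FB groups of D0 and the EC group of D28. All were kept here, and results were also computed without the library of each group farthest from the others. Depth sets counting error only: intervals and limits from counts do not cover PCR duplicates.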

Additional observations from a re-analysis of the deposited data

Results flagged for a closer look

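In 8 of 90 groups of 4 libraries, 1 library lay far from the other 3 by Dixon's test, which chance gives in about 1 of 20 groups. In CMs these were miR-208a-5p in replicate 1 at D28, with 3.84 log2 CPM beside 4.58 to 4.72, and the log2 ratio of miR-208b-3p to miR-208a-3p in replicate 1 at D14, with -2.39 beside -3.58 to -3.39. In ECs miR-499-5p stood at 8.78 in replicate 1 at D3, beside 7.48 to 7.69, and at 6.24 in replicate 4 at D14, beside 7.56 to 7.72. In FBs at D1, miR-208a-3p stood at 1.53 in replicate 1, beside 0.79 to 0.89, and miR-499-5p at 3.96 in replicate 2, beside 4.17 in the other 3. In HCs miR-208a-3p stood at 4.59 in replicate 3 at D3, beside 5.81 to 6.03, and miR-208b-3p at 6.24 in replicate 3 at D0, beside 0.60 to 1.44, from 1 count.

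The change from D0 in CMs was flagged where it exceeded the mean of the changes in ECs, FBs and HCs by an interaction term (edgeR, log2 scale). Of all 712 tested miRNAs, 15.9%, 27.9%, 28.2%, 26.5% and 23.9% were higher in CMs in this test at D1, D3, D7, D14 and D28. For miR-208a-3p the difference was 1.53, 1.85, 3.63, 3.27 and 3.68 at D1, D3, D7, D14 and D28, and for miR-499-5p it was 1.88, 2.35, 2.37, 1.92 and 3.42. For miR-208a-5p it was 1.90, 3.74, 2.81 and 3.84 and for miR-208b-3p 2.75, 4.05, 3.77 and 5.23 at D3, D7, D14 and D28. miR-208b-3p and miR-208a-5p did not pass the filter on low counts in every fraction, so their values here are a description. miR-208b-3p had no count in ECs at D28. The summed markers of ECs, FBs and HCs had a higher median in CMs on each of these days than at D0. Both CM markers fell in HCs on all 5 days, and in ECs miR-1a-3p fell at D14 and both fell at D28, but at D3 they stood at 0.02 (miR-1a-3p) and 0.14 (miR-133a-3p) against D0 and did not pass (edgeR). The part of the markers in these differences was not tested.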

How the results depend on the processing

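Of the changes in CMs against D0 at D7, D14 and D28, those of miR-208a-3p and miR-208b-3p stayed past the threshold under every alternative tried. Counts of members in this section cover all tested members, with miR-208b-5p and miR-499-3p put back in CMs. The share of all tested miRNAs that passed under each alternative is not given, so these counts say nothing particular to the members. The number of members past the threshold in CMs at D1 was 5 with the library total with or without miR-1a-3p, 4 with no filter and 0 with the libraries of D0 and D1 alone, against 1, and at D3 it was 6 with either library total, against 2. At D1, miR-208a-3p passed at 2.08, 1.69 and 1.02 and miR-208b-3p at 2.25, 1.86 and 1.2 with the library total, the total without miR-1a-3p and no filter, and miR-499-5p missed it at 1.07 with D0 and D1 alone. At D3, miR-208a-3p passed at 2.62, 1.99 and 0.98 with the same 3 settings and at 0.76 with D0 and D3 alone. With the library total, 2 members passed from D14 to D28 (against 1), 4 in the interaction at D1 (against 2), 0 in ECs at D7 (against 2) and 0 in HCs at D1 (against 2). With DESeq2, 1 passed in HCs at D1 and 2 at D14 (against 2 and 4). With no filter, 1 passed in ECs at D7 and 2 in FBs at D28 (against 2 and 0), and with D0 and the day alone 1 in ECs at D3 and 2 in FBs at D28 (against 0 and 0). The cause was not tested.

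The ratios passed in the limma fit, added after the data were seen, at 1.03 (D7) and 2.51 (D14) for miR-208b-3p to miR-208a-3p, -1.27 and -1.02 for miR-499-5p to miR-208a-3p and -2.30 and -3.53 for miR-499-5p to miR-208b-3p. With hairpin tables the sign turned for miR-208b to miR-208a at D1 (-0.62) and D28 (-0.19) and for miR-499 to miR-208a at D1 (-0.39). Those tables are not a second count of the same reads. The sign of values that passed no test also turned for miR-208b-3p in HCs with the library total (0.0385 at D3, 0.17 at D28), for its ratio to miR-208a-3p against CMs with a pseudocount of 5 (ECs 0.76 at D3, FBs 1.87 at D3 and 1.97 at D7, HCs 0.12, 0.36 and 0.10 at D1, D3 and D7), and for the arm ratios in CMs (miR-208a -0.0458 at D1, miR-499 0.0662 at D28). With that pseudocount 2 arm ratios changed over all days in CMs, against 1.

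Leaving out 1 library at a time, the number past the threshold ran from 1 to 3 in CMs at D1, 3 to 6 at D14 (3 without CM replicate 3 of D14), 0 to 1 in ECs at D3, 0 to 2 at D7, 0 to 2 in FBs at D7 (2 without FB replicate 4 of D7), 0 to 1 at D14, 1 to 3 in HCs at D1 and 2 to 4 at D14, 1 to 2 for arm ratios in CMs and 0 to 1 in HCs. The change of miR-208a-3p in CMs ran from 0.43 to 0.95 at D1 and 0.35 to 0.79 at D3, and that of miR-499-5p from 0.49 to 0.80 at D14. Signs turned for miR-208b-5p in CMs at D1 (-0.33 to 1.92), miR-499-3p in CMs at D3 (-0.0124 to 0.77), miR-208a-5p in ECs at D1 (-0.69 to 0.13), miR-208a-3p in FBs at D7 (-2.21 to 0.0482), miR-499-5p in FBs at D14 (-1.28 to 0.0895), miR-208b-3p in HCs at D28 (-0.37 to 0.0566), miR-499-5p to miR-208b-3p at D1 (-0.0247 to 0.14) and the arm ratio of miR-208a at D1 (-0.12 to 0.28), D3 (-0.29 to 0.0817), D14 (-0.39 to 0.11) and D28 (-0.21 to 0.16).

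The study took the pools of a day from the same animals in all cell types, but neither labels nor methods say that pools of one number match. Deviations of same-numbered libraries correlated at a mean of 0.03 within CMs across days (-0.59 to 0.66), beside -0.0089 for other numbers. Across cell types of a day the mean was 0.04 (-0.57 to 0.46), beside -0.015 for other numbers. Such values cannot show whether pools of one number match, and the numbers were not taken as pairs. Paired by number, an alternative added after the data were seen, the ratio of miR-208b-3p to miR-208a-3p at D14 was lower in HCs than in CMs in 4 of 4 pairs (-0.57, paired SE 0.11, exact permutation p = 0.125, the smallest that 4 pairs allow, adjusted 0.9), and none of the 18 comparisons passed. With a replicate block 2 members passed from D3 to D7 in CMs (against 1) and 1 in ECs at D7 (against 2), and miR-208b-3p in HCs at D14 was 0.96 (adjusted p = 0.092, edgeR). The block changed no other call, the arm ratios included. Leaving out the farthest library of each of the 3 groups from which the study dropped 1 changed no call.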
